A study of Mus musculus with 20 samples.

Results

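The immunoglobulin light chain variable (V) segments were described in the distal colon of 20 C57BL/6 mice. Members were the rows of the gene count table whose Ensembl identifier belongs in GENCODE release 39 to an IG_V_gene with a symbol starting Igkv or Iglv, and which reached 10 counts in at least 1 library. The annotation lists 103 such genes, 101 of them had a row, and 87 of the 26619 rows of the table were kept, namely 84 kappa (Igkv) and 3 lambda (Iglv) segments. At the edge of this filter, Igkv4-69 was kept with 10 counts in its highest library, whereas Igkv4-92 reached 9 counts and was one of 14 genes left out. The segment with the most counts in the 14 was Igkv12-38, with 48 in all 20 libraries together.

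The study asked how resistant potato starch (RPS), a starch that escapes digestion and is fermented in the large bowel, acts on mice that eat a Western-style food. All 20 mice were weaned at about 3 weeks of age and had 6 weeks of Total Western Diet (TWD), which is modelled on what people in the United States eat. For a further 3 weeks the TWD was given alone (0% RPS, the control) or with 2%, 5% or 10% RPS by weight, to 5 mice each, and whole tissue from the end of the colon was sequenced. For 3 mice the labels disagree on the diet. The description label, used here, and the treatment label gave RS10_717 5% and 2%, RS10_725 10% and 5%, and RS10_748 2% and 10% RPS.

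An antibody light chain is encoded by a V segment that a developing B cell joins to a J segment of the same locus, kappa on chromosome 6 or lambda on chromosome 16, and that is then spliced to a constant gene. The RAG recombinase cuts beside the V segment at a recombination signal, which is a heptamer and a nonamer held apart by a spacer of fixed length. Because all descendants of a B cell carry the same joined segment, an expanded clone of plasma cells, the antibody-secreting cells that fill the colon wall, adds transcripts of a single light chain V segment, and mouse antibodies mostly carry kappa chains.

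The ends of the segments on which the results turn, with their signals, are given below from the GRCm39 genome, 5′ to 3′ on the coding strand. Each line holds the last 30 bases of the V exon in lower case, the heptamer in capitals, the spacer of 12 bases (23 for lambda) in lower case and the nonamer in capitals. The first 3 are the segments with the highest mean use, the next 4 led or came second with a high share in single mice, and the last 3 were called different between diets by at least 1 of the tools used.
Igkv10-96 (chr6:68608919-68608976, minus strand): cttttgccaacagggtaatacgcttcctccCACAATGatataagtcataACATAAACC
Iglv1 (chr16:18903728-18903796, minus strand): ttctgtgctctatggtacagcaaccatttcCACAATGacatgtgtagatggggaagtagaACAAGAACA
Igkv6-15 (chr6:70383425-70383482, minus strand): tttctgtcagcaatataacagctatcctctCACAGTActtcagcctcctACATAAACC
Igkv14-100 (chr6:68496432-68496489, plus strand): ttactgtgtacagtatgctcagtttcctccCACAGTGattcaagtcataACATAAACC
Igkv12-44 (chr6:69791587-69791644, minus strand): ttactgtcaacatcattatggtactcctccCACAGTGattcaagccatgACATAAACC
Igkv4-55 (chr6:69584231-69584288, minus strand): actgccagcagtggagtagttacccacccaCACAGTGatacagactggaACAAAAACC
Igkv1-117 (chr6:68098782-68098839, plus strand): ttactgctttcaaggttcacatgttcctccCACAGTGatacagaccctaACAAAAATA
Igkv6-25 (chr6:70192912-70192969, plus strand): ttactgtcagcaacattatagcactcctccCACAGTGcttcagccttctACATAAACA
Igkv1-88 (chr6:68839221-68839278, minus strand): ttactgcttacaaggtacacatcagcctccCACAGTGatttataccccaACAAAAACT
Igkv4-57 (chr6:69552931-69552988, minus strand): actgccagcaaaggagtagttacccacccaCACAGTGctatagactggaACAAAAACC

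The heptamer CACAGTG followed the V exon directly in 74 of 87 members (85.1%), read on the coding strand, and in 0.00252% of 237902 exons of protein-coding genes. Iglv1 and Igkv10-96, with the highest mean use of all members, carried CACAATG, which is the change G5A counted from 1 at the first base of the heptamer. Igkv6-15, next in mean use, carried CACAGTA (G7A). CACAATG was found in 7 members and CACAGTA in 2, and 4 members had other letters. The nonamer ACAAAAACC was exact in 32 members. The 13 members without the exact heptamer held 27.4% of the mean use, with a median of 1.18% a segment, against a median of 0.481% for the 74 with it, as a description only.

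Light chain V promoters are known for an octamer bound by the POU factors Oct1 and Oct2. The octamer ATTTGCAT was searched on both strands (its reverse complement is ATGCAAAT) in the 250 bases before the start codon. It was present in 65 members (74.7%), all in the coding orientation, and in 1.23% of the same window of 21684 protein-coding genes. Its last base lay 76 to 102 bases before the start codon, with a median of 98. The windows of 30 bases around it are shown for Igkv10-96, Igkv12-44 and Igkv14-100, each of which led in at least 1 mouse, and for Iglv1, with the octamer in capitals.
Igkv10-96 (chr6:68609489-68609518, minus strand): agttcccaaaaATTTGCATgctctcacttc
Igkv12-44 (chr6:69792166-69792195, minus strand): accctttgctgATTTGCATgtacccaaagc
Igkv14-100 (chr6:68495894-68495923, plus strand): gatttccaattATTTGCATgcccccattgc
Iglv1 (chr16:18904297-18904326, minus strand): aaatgaaagtaATTTGCATtactagcccag
In Igkv6-15, Igkv1-117, Igkv6-25 and Igkv1-88 these letters were absent from the window. Members without the octamer numbered 22 and held 31.8% of the mean use.

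Segments of this locus are alike, and reads of 50 bases cannot always be placed. Of all 50-base windows of a member's exons, the median share that occurs once in the genome was 73.6% over the 87 members. Every window was unique in 17 members, which included Igkv14-100, Igkv14-111, Igkv15-103, Igkv16-104, Igkv19-93 and Igkv1-88. In 18 members fewer than 50% of windows were unique, among them Igkv1-117 (46.7%) and Igkv1-110 (46.5%), which share 160 windows with each other, Igkv4-55 (47.7%) and Igkv3-5 (43.0%). How the counting placed reads that fit several segments is not given in the sources used here, so counts of these close copies are uncertain.

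Libraries held 18429493 to 34974230 counts, and every library of the RPS diets was below the 31254832 counts of the smallest control library. Light chain V segments took 121837 counts in all, between 2001 (RS10_704) and 22755 (RS10_703) a mouse. Libraries that stood apart were RS10_703, in which the summed level of the 87 segments was the highest of the 20 mice (given with the levels), and RS10_721 and RS10_784, in which the summed level of 8 pancreas markers was 4732 and 421 CPM (counts scaled to a common library total) against at most 12.3 CPM in the other 18. Plasma cell transcripts were present in every library: the summed level of 17 plasma cell markers ranged from 902 to 1907 CPM, and J chain, which joins IgA into dimers, from 67.7 to 720.6 CPM. Since whole tissue was sequenced, a change in the number of plasma cells and a change in RNA per cell cannot be told apart.

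Segment use was broad, and the leading segment differed between many of the mice. The share of a segment was taken as its counts per kilobase of exon divided by the sum of this value over the 87 members. Of these, 54 had at least 1 count in all 20 libraries and 15 had at least 10 counts in all of them. At the other end, 9 reached 10 counts in a single library, and 14 had a mean share under 0.1%.

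Igkv10-96 had the highest mean share, 7.37%, with a range of 2.49% (RS10_727) to 17.0% (RS10_707), and exceeded 5% in 12 of 20 mice. Iglv1, the main lambda segment, followed at 6.04% (1.67% to 20.3%), then Igkv6-15 at 5.04% (0.963% to 14.9%). Igkv1-117 at 4.76%, Igkv12-44 at 3.89%, Igkv6-23 at 3.74%, Igkv14-111 at 3.46% and Igkv1-110 at 3.39% came next in mean share. The spread between mice exceeded the steps between these means, so neighbours in this order did not differ beyond it. Igkv14-100 and Igkv4-55 completed the 10 highest means, 2.74% and 2.66%, but with medians of 0.368% and 0.563%, because their means came from a few mice. The 10 segments held 43.1% of the mean use, and 13 segments made up 50% of it.

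**Figure D1:**
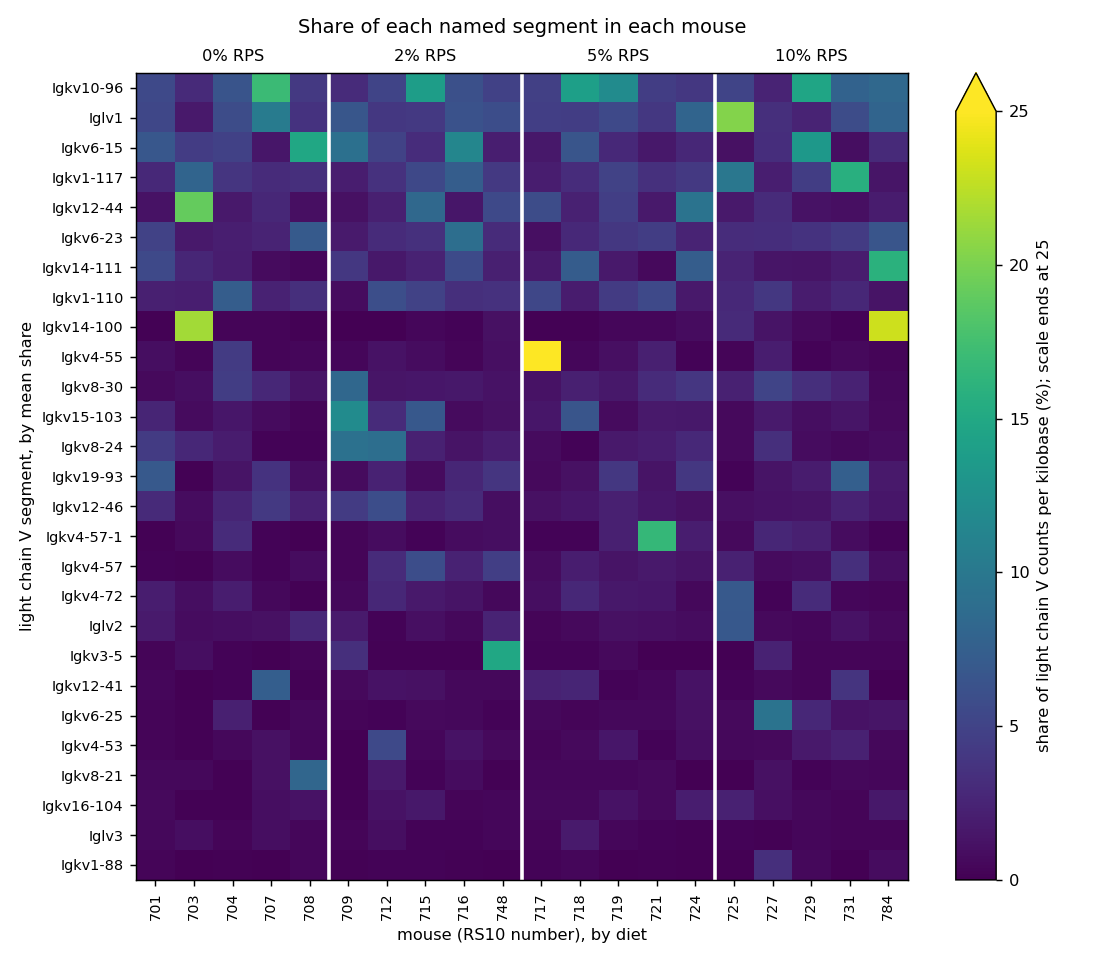
Share of each of the 27 named segments (rows, ordered by mean share) in each of 20 mice (columns, by diet), as percent of light chain V counts per kilobase. The colour scale ends at 25%, and the only value above it is Igkv4-55 in RS10_717 at 35.5%. Igkv10-96 and Iglv1 are coloured in most columns, whereas Igkv14-100, Igkv4-55, Igkv4-57-1 and Igkv3-5 are bright in 1 or 2 columns.

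In the 20 mice, 14 different segments took the lead. Igkv10-96 led in 5 mice (RS10_707 of the control, RS10_715 at 2%, RS10_718 and RS10_719 at 5% and RS10_729 at 10% RPS), with 12.1% to 17.0% of use. Igkv6-15 led in RS10_708 at 14.9% and in RS10_716 at 11.5%. Igkv14-100 led in RS10_703 at 21.5% and in RS10_784 at 23.1%. Each of the other 11 led in 1 mouse.

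Some leaders took far smaller shares in the other mice. Igkv4-55 took 35.5% in RS10_717 (2256 of 6314 counts, 35.7% of raw counts, Wilson 95% interval 34.6 to 36.9), against a median of 0.486% and at most 4.37% in the other 19 mice. Igkv4-57-1 took 16.7% in RS10_721 and at most 3.09% elsewhere. Igkv3-5 took 14.9% in RS10_748 and at most 3.38% elsewhere. Igkv6-25 took 9.5% in RS10_727 and at most 2.82% elsewhere. Such intervals cover counting error only, since amplified reads without molecular identifiers are not independent molecules.

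Igkv14-100 ranged from 0.0295% to 23.1%, with 2.96% as the highest value outside RS10_703 and RS10_784. In RS10_703 the second segment, Igkv12-44, took 19.1%. In RS10_784 it was Igkv14-111, at 15.98%. Of the remaining leaders, Igkv15-103 took 12.02% in RS10_709, Igkv12-44 9.56% in RS10_724, Igkv8-24 9.08% in RS10_712, Igkv1-117 15.7% in RS10_731 and Iglv1 20.3% in RS10_725. The lowest leading shares were Igkv1-110 with 7.33% in RS10_704 and Igkv19-93 with 6.99% in RS10_701 (205 of 2980 counts, 6.88% of raw counts, Wilson 95% interval 6.03 to 7.85).

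Over all members, 28 exceeded 5% of use in at least 1 mouse, and 15 of them did so in a single mouse. A share above 10% was reached by 11 members. Only 6 members exceeded 5% in 5 mice or more. In 32 members the highest share was over 10 times the median share. Outside the leaders, the highest means and the lambda segments, the largest peaks were Igkv8-30 with 8.37% in RS10_709, Igkv8-21 with 8.26% in RS10_708, Igkv12-41 with 7.51% in RS10_707, Igkv4-72 with 6.98% in RS10_725, Igkv12-46 with 5.91% in RS10_712 and Igkv4-57 with 5.87% in RS10_715. The 60 members not named had mean shares of 0.00572% to 2.47% (Igkv5-48) and took 31.4% together, and none exceeded 5.81% (Igkv14-126) in any mouse.

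The heavy chain V segments of the same libraries were read beside them. In RS10_717, the mouse led by Igkv4-55, Ighv1-82 took 52.7% of heavy chain V use, against 6.53% to 25.5% for the leading heavy segment of the other 19 mice. In RS10_748, led by Igkv3-5, Ighv1-80 took 25.5%. In RS10_703 the leading heavy segment, Ighv1-19, took 19.5%. In RS10_784, the other mouse led by Igkv14-100, it took 11.6% (Ighv14-3), below the median of 12.5%. Bulk counts do not pair a light with a heavy chain in a cell.

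Segments were also grouped by family, the number after Igkv, which marks sequence likeness. Igkv4, with 23 members the largest family, took 14.0% ± 8.43 (SD, n = 20), Igkv6 with 9 members 14.0% ± 5.69, and Igkv1 with 7 members 10.1% ± 3.38. Igkv10 reached 8.73% ± 4.44 with 2 members, of which Igkv10-96 averaged 7.37% and Igkv10-94 1.36%. Family maxima fell in the mice of the single peaks, with Igkv4 at 41.8% in RS10_717 and Igkv14 at 39.4% in RS10_784. By diet, Igkv4 took 8.64% ± 3.98 in the control, 13.1% ± 5.29 at 2%, 20.8% ± 13.3 at 5% and 13.4% ± 4.46 at 10% RPS (SD, n = 5 each), and these ranges overlapped.

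The kappa members span chr6:67532481-70681161 and lie in both orientations, so that joining proceeds by deletion or inversion. The 51 segments on the minus strand took 59.5% ± 8.54 of use and the 33 on the plus strand 32.7% ± 7.10 (SD, n = 20). Split by position into 4 runs of 21 segments from low to high coordinate, they took 25.8%, 17.97%, 25.7% and 22.6% of mean use.

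The lambda segments lie at chr16:18903767-19079609, all on the minus strand. Iglv1 and Iglv2 differ by 9 of the 305 bases of their V exons (97.05% identity), while Iglv3 is 56.2% identical to its nearest member. The first 300 bases of both V exons are shown because the counts of this pair depend on these bases, which are in capitals, from the 5′ end on the minus strand.
Iglv1 (chr16:18903772-18904071, minus strand): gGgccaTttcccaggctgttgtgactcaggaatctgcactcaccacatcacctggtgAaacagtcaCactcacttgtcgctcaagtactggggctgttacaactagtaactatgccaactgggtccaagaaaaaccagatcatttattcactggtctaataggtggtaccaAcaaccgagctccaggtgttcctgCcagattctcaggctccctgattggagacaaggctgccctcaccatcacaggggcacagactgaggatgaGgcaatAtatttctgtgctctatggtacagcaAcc
Iglv2 (chr16:19079156-19079455, minus strand): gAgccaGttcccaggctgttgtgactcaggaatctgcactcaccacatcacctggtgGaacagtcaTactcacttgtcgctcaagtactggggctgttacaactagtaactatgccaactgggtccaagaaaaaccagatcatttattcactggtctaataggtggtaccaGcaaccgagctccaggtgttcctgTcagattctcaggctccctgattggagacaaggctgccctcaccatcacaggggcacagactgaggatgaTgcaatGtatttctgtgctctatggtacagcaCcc
From Iglv1 to Iglv2 the changes are G2A, T7G, A58G, C67T, A172G, C196T, G266T, A272G and A298C, counted from 1 at the first base of the V exon. The longest run without a difference is 104 bases, and 74.1% of the windows of Iglv1 and 71.6% of those of Iglv2 are unique.

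Lambda segments took 7.89% ± 5.10 of light chain V use (SD, n = 20). In 19 mice the value lay between 3.32% and 12.5%, and in RS10_725 it was 27.4%, where Iglv1 took 20.3% and Iglv2 6.86%. Iglv3 took at most 1.77% (RS10_718). The lambda share of light chain constant counts was 19.5% in RS10_725 and 3.03% to 11.05% elsewhere. V and constant counts come from the same transcripts and libraries, so these readings are not independent of each other. Diet means of the lambda share of V use were 7.49% ± 3.23, 7.09% ± 1.77, 6.74% ± 1.59 and 10.2% ± 9.89 at 0%, 2%, 5% and 10% RPS (SD, n = 5 each), and the diets overlapped.

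In mice each lambda V segment is known to join mostly to particular lambda constant genes. Over 20 mice the share of Iglv1 went with that of Iglc1 (Pearson r = 0.947, permutation p = 1e-05, the smallest value 100000 resamples can give, adjusted 9e-05; Spearman rho = 0.907, permutation p = 1e-05, adjusted 9e-05), and r was 0.902 without RS10_707 and RS10_725. Iglv2 went with Iglc2 (r = 0.929, permutation p = 5e-05, adjusted 0.00022; rho = 0.562, permutation p = 0.011, adjusted 0.05), with r = 0.682 without RS10_708 and RS10_725. The other pairs of Iglv1 or Iglv2 had adjusted permutation p of 0.014 to 0.028 by Pearson and 0.15 to 0.26 by Spearman. Their Pearson r rested largely on the 2 extreme mice. Without these, r fell from 0.740 to 0.129 for Iglv1 with Iglc2, from 0.744 to 0.335 for Iglv1 with Iglc3, from 0.648 to 0.254 for Iglv2 with Iglc1, and from 0.693 to 0.119 for Iglv2 with Iglc3. Iglv3 passed no test against Iglc1, Iglc2 or Iglc3 (r = -0.108, -0.027 and -0.115, adjusted permutation p = 0.72, 0.91 and 0.72; rho = -0.185, 0.411 and 0.069, adjusted permutation p = 0.49, 0.16 and 0.77). The family held 9 relations, adjusted by Benjamini-Hochberg, and none was computed within diets, which hold 5 mice each.

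**Figure D2:**
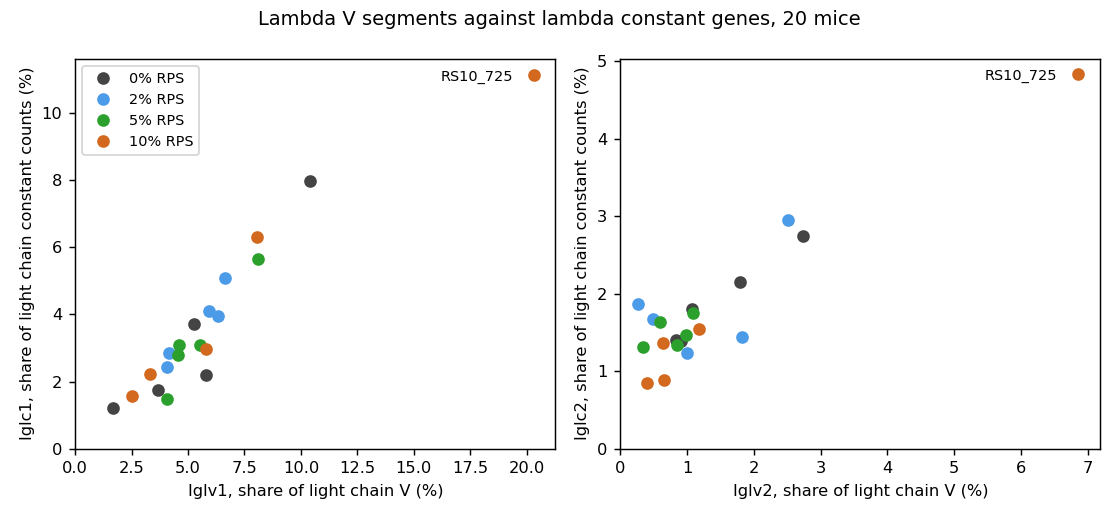
Share of Iglv1 and Iglv2 among light chain V use (x axes, %) against the share of Iglc1 and Iglc2 among light chain constant counts (y axes, %) in 20 mice, coloured by diet. RS10_725 (10% RPS) lies apart in both panels, and Iglv1 and Iglc1 still rise together without RS10_707 and RS10_725 (Pearson r = 0.902).

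Evenness was expressed as the effective number of segments, the exponential of the Shannon entropy, which is the number of equally used segments that would give the same entropy. The control mice RS10_701, RS10_703, RS10_704, RS10_707 and RS10_708 had 41.4, 21.7, 40.8, 31.3 and 30.03 effective segments. At 2% RPS, RS10_709, RS10_712, RS10_715, RS10_716 and RS10_748 had 29.1, 40.7, 30.7, 35.7 and 33.9. RS10_703 was the most uneven of these 10 mice and RS10_701 the most even. At 5% RPS, RS10_717, RS10_718, RS10_719, RS10_721 and RS10_724 had 20.7, 33.8, 39.3, 33.4 and 37.3. At 10% RPS, RS10_725, RS10_727, RS10_729, RS10_731 and RS10_784 had 27.0, 45.3, 32.4, 31.1 and 20.7, which includes both the highest and the lowest value of the series. The diets overlapped, with means of 33.1 ± 8.23, 34.0 ± 4.55, 32.9 ± 7.25 and 31.3 ± 9.08 (SD, n = 5) at 0%, 2%, 5% and 10% RPS. Differences from the control were 0.952, -0.173 and -1.76, all within 1 SD of either diet. With each mouse left out they ran from -1.88 to 3.05, from -3.004 to 2.88 and from -5.26 to 0.904, so that each took either sign. Averaging the shares over the 20 mice gave 49.2 effective segments, more than in any single mouse.

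Dominance overlapped between diets as well. The leading segment took 13.6% ± 6.31 in the control, 12.3% ± 2.27 at 2%, 17.6% ± 10.3 at 5% and 16.7% ± 5.27 at 10% RPS (SD, n = 5). The 5% mean lay 4.02 points above the control and 0.458 points below it without RS10_717. The 5 leading segments together took 25.3% (RS10_727) to 62.1% (RS10_784), and between 4 and 13 segments made up 50% of use. Only 4 were needed in RS10_703, RS10_717 and RS10_784, one mouse each from the control, 5% and 10% RPS.

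Richness was compared at an equal number of light chain V counts. Thinned to 2001 counts, mice were expected to show 73.0 ± 3.52 segments in the control, 73.7 ± 2.47 at 2%, 74.0 ± 1.32 at 5% and 72.1 ± 1.73 at 10% RPS (SD, n = 5). The lowest value was 68.0 in RS10_703 and the highest 77.6 in RS10_716. As deposited, members with at least 10 counts numbered 48.6 ± 13.5, 54.6 ± 10.5, 55.4 ± 5.18 and 57.8 ± 4.55, which is higher by 6.0, 6.8 and 9.2 than the control.

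**Figure D3:**
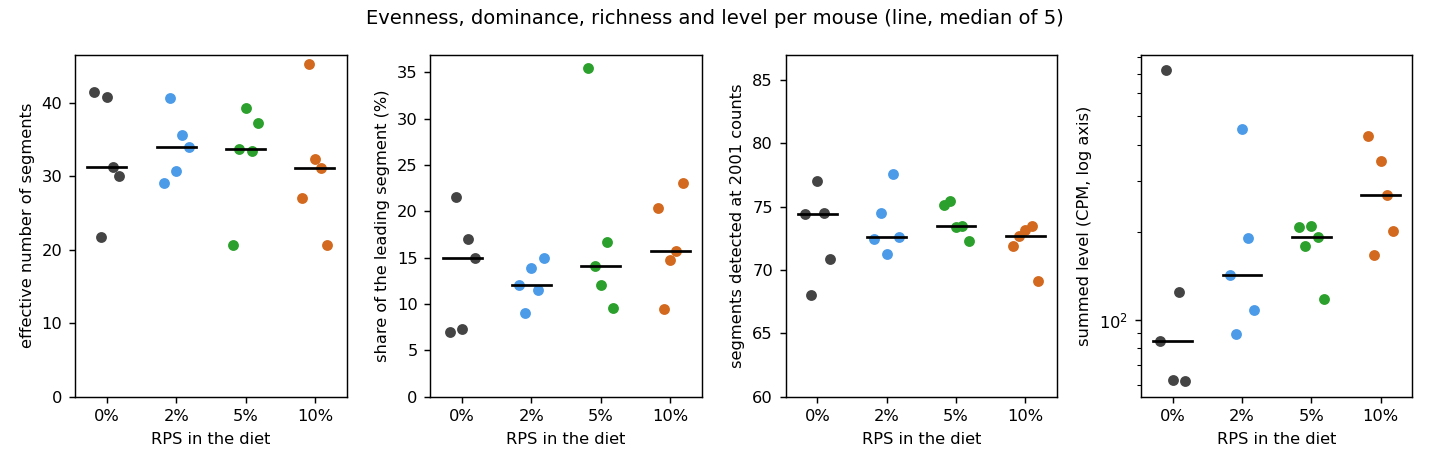
Effective number of segments, share of the leading segment (%), segments detected at 2001 counts and summed level (CPM, log axis) in each mouse by RPS in the diet, with the median of 5 mice as a line. In the first 3 panels the diets overlap over most of their range, and in the fourth the medians go from 84.5 CPM in the control to 269 CPM at 10% RPS.

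**Figure D4:**
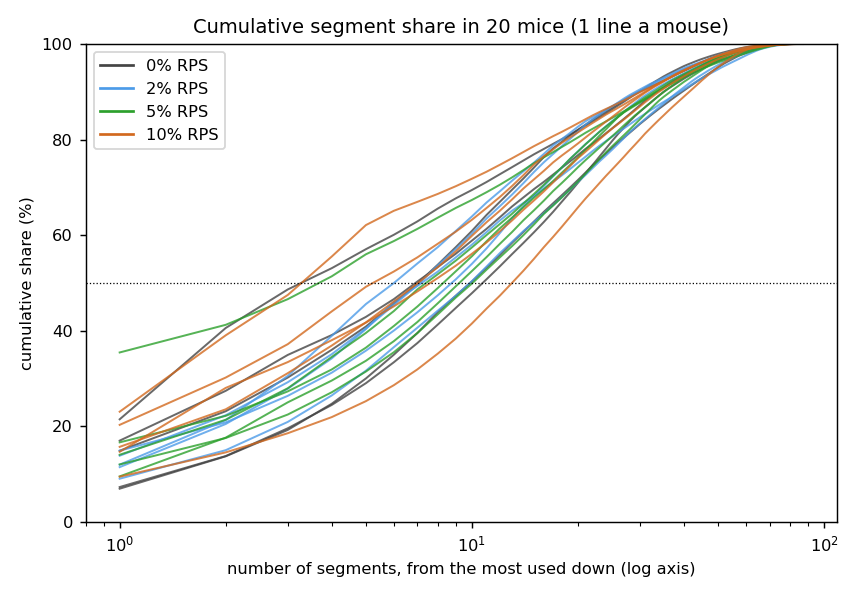
Cumulative share (%) of light chain V use against the number of segments counted from the most used down (log axis), with 1 line a mouse coloured by diet and a dotted line at 50%. Lines cross 50% between 4 and 13 segments, and the colours are mixed.

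Mice on the same diet were about as far apart in segment use as mice on different diets. The Bray-Curtis distance, which is 0 for identical shares and 1 for no overlap, had a median of 0.460 over the 40 pairs of mice on the same diet (0.361 to 0.632) and 0.469 over the 150 pairs on different diets (0.324 to 0.620). Within diets the medians were 0.498, 0.429, 0.463 and 0.522 at 0%, 2%, 5% and 10% RPS. The nearest pair was RS10_715 (2% RPS) and RS10_718 (5% RPS), both led by Igkv10-96. The farthest was RS10_703 and RS10_708, both control mice. RS10_703 and RS10_784, on different diets, were each other's nearest at 0.440, and both were led by Igkv14-100. Pairs share mice, so no test was made.

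The summed level of the 87 segments was higher at 10% RPS than in 4 of the 5 control mice. In the control it was 84.5, 720, 62.2, 125 and 61.6 CPM in RS10_701, RS10_703, RS10_704, RS10_707 and RS10_708. At 10% RPS it was 428, 167, 352, 269 and 203 CPM in RS10_725, RS10_727, RS10_729, RS10_731 and RS10_784. All 5 mice at 10% RPS lay above those 4 and below RS10_703. The ranges were 89.6 to 454 CPM at 2% and 118 to 210 CPM at 5% RPS. On the log2 scale, the mean difference from the control was 0.41 at 2%, 0.52 at 5% and 1.11 at 10% RPS, and without RS10_703 it was 1.04, 1.16 and 1.75. The lowest values with 1 mouse left out were 0.04 at 2% RPS without RS10_715, and 0.27 at 5% and 0.86 at 10% RPS without RS10_708.

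The kappa constant gene Igkc had medians of 426, 601, 901 and 1442 CPM from 0% to 10% RPS. It stood at 2178 CPM in RS10_703, above every mouse at 10% RPS (1007 to 1815 CPM), and edgeR did not call it at 10% RPS. Kappa V counts per 100 Igkc counts had medians of 24.9, 21.8, 19.6 and 17.3. This ratio ran from 13.3 to 31.9 in the control and from 14.6 to 19.3 at 10% RPS, so that the diets overlapped. The 17 plasma cell markers summed to a median of 1094 CPM in the control (902 to 1675) and 1676 CPM at 10% RPS (1370 to 1907). Their part in the segment levels was not tested.

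Each segment was then compared between every RPS level and the control with edgeR's quasi-likelihood test across all genes, with a call at a Benjamini-Hochberg adjusted p of at most 0.05 and a fold change of at least 1.5. No member was called at 10%, 5% or 2% RPS, where 0.0391%, 0% and 0% of the 17893 genes tested were called. At 10% RPS 2 members were called without RS10_703, where 0.606% of all genes were, and 1 without RS10_704, RS10_715 or RS10_727, where 0.328%, 0.0609% and 1.04% were. The lowest adjusted p of a member in edgeR was 0.0659, 0.369 and 1 at these levels. At an unadjusted edgeR p under 0.05, 12 members were higher and 3 lower at 10% RPS, against 7.32% and 7.87% of all genes. At 5% RPS 4 were higher and 3 lower, and at 2% RPS 5 were higher and 3 lower, where 9.19% and 1.41% of all genes passed in either direction. These counts are over the 68 members that passed the filter on low counts, which favours segments that are high in some group.

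DESeq2, the tool used in the study, called 3 members at 10% RPS (Igkv6-25, Igkv4-57 and Igkv1-88), none at 5% and 1 at 2% RPS (Igkv4-57), all higher, where it called 1.25%, 0.195% and 0.00386% of genes. Groups did not overlap for Igkv6-25 and Igkv4-57 at 10% RPS and for Igkv4-57 at 5% RPS, and no member was separate at 2% RPS. Of all genes, 2.28%, 1.04% and 0.240% were separate at 10%, 5% and 2% RPS. A linear trend over RPS percent passed an adjusted p of 0.05 for 2 members by edgeR (Igkv6-25 and Igkv1-88), against 2.10% of genes, and for 3 by DESeq2 (with Iglv1), against 5.60%. The edgeR count was 6 without RS10_703, where 4.21% of all genes passed, and 3 without RS10_715 or RS10_727, where 2.69% and 6.34% passed. It was 1 without RS10_707, RS10_708, RS10_709, RS10_729 or RS10_784, where 1.36%, 0.606%, 1.15%, 0.702% and 0.133% of all genes passed. With the treatment label it was 0, and so was the count over all genes. The study listed Igkv6-25, Igkv4-57 and Igkv1-88 for this tissue from these same samples, so their calls here are no independent evidence.

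With all 87 members kept in a fit without a filter, the median log2 fold change of the members was 0.68 at 10%, 0.24 at 5% and 0.14 at 2% RPS, against -0.02, 0.00 and 0.00 for all genes. Positive values were found for 62, 54 and 51 of the 87. In the fit with the filter, 51, 42 and 40 of the 68 members were positive at 10%, 5% and 2% RPS. Of all genes in that fit, 46.8%, 48% and 49.6% were positive. Members were measured in the same pieces of tissue and are not independent of each other.

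Igkv6-25 (ENSMUSG00000094930, chr6:70192384-70192941, plus strand) had the lowest adjusted p of the members at 10% RPS. It stood at 0.283, 1.17, 1.37, 0.149 and 0.362 CPM in the control mice (RS10_701, RS10_703, RS10_704, RS10_707, RS10_708) and at 2.55, 16.3, 10.2, 3.42 and 3.06 CPM at 10% RPS (RS10_725, RS10_727, RS10_729, RS10_731, RS10_784). All 5 values at 10% RPS were above the highest control. At 2% RPS it ranged from 0.265 to 2.73 CPM and at 5% RPS from 0.663 to 1.38 CPM, both overlapping the control. Only 56.4% of its windows are unique, and 89 are shared with Igkv6-23, so its counts are uncertain to that extent.

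For Igkv6-25 the log2 fold change at 10% RPS was 3.41 ± 0.71 (SE), with an adjusted p of 0.0659 in edgeR and 0.00075 in DESeq2. The edgeR value passed the threshold when RS10_703 (0.036), RS10_704 (0.0487), RS10_715 (0.0489) or RS10_727 (0.0396) was left out and in none of the other 16 fits with 1 mouse fewer, whereas DESeq2 passed in all 20. The trend was 0.35 on the log2 scale per percent RPS (edgeR adjusted p = 0.0116), passed without any 1 mouse (edgeR adjusted p 0.0045 to 0.0305) and reached an edgeR adjusted p of 0.147 with the treatment label.

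Igkv1-88 (ENSMUSG00000076535, chr6:68839249-68840015, minus strand), every window of which is unique, stood at 0.255, 0.285, 0.0932, 0.0893 and 0.241 CPM in the control and at 0.0761, 5.44, 1.92, 0.233 and 1.69 CPM at 10% RPS, in the same order of mice. In 3 mice at 10% RPS it was above all control mice, while RS10_731 lay within the control range and RS10_725 below it. The control levels rest on 3 to 9 counts a library. The log2 fold change was 3.21 ± 0.90 (SE), with an adjusted p of 0.113 in edgeR and 0.0319 in DESeq2, which passed in 13 of 20 fits with 1 mouse fewer. Its trend of 0.33 per percent RPS had an edgeR adjusted p of 0.0305, which passed in 14 of 20 such fits and rose to 0.0846 at most.

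Igkv4-57 (ENSMUSG00000076556, chr6:69552959-69553484, minus strand) stood at 0.170, 1.17, 0.497, 0.327 and 0.482 CPM in the control, at 1.39, 3.41, 2.57, 3.16 and 1.43 CPM at 5% RPS (RS10_717, RS10_718, RS10_719, RS10_721, RS10_724) and at 9.01, 1.20, 2.99, 8.42 and 1.76 CPM at 10% RPS. The lowest mouse at 10% RPS, RS10_727 at 1.20 CPM, exceeded the highest control mouse, RS10_703 at 1.17 CPM, by less than the spread within either diet. Its log2 fold change was 2.19 ± 0.89 (SE; edgeR adjusted p = 0.474, DESeq2 0.203) at 5% RPS and 3.16 ± 0.88 (SE; edgeR adjusted p = 0.116, DESeq2 0.00801) at 10% RPS. In DESeq2 the 10% call held in all 20 fits with 1 mouse fewer (adjusted p 0.000745 to 0.05). The DESeq2 call at 2% RPS (adjusted p = 0.0235) was held in 13 of 20 and not without RS10_715 (adjusted p = 1). Of its windows 57.1% are unique, and 46 are shared with Igkv4-55.

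**Figure D5:**
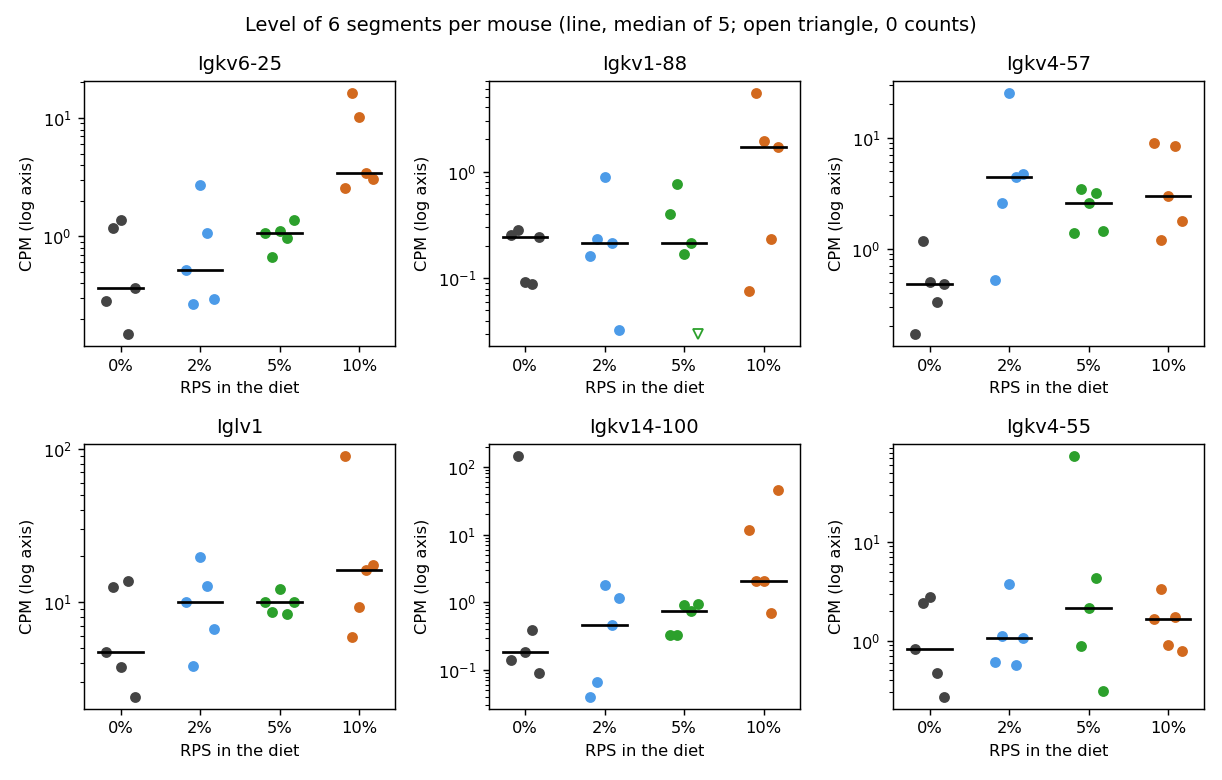
Level in CPM (log axes) of Igkv6-25, Igkv1-88, Igkv4-57, Iglv1, Igkv14-100 and Igkv4-55 in each mouse by RPS in the diet, with the median of 5 mice as a line and open triangles for 0 counts. Igkv6-25 and Igkv4-57 at 10% RPS lie above all control mice, whereas single mice carry Iglv1 (RS10_725, 89.9 CPM), Igkv14-100 (RS10_703, 146 CPM, and RS10_784, 45.1 CPM) and Igkv4-55 (RS10_717, 74.5 CPM).

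For several members 1 mouse set the size of the difference. Iglv1 at 10% RPS stood at 89.9, 5.88, 9.34, 16.3 and 17.4 CPM against 4.73, 12.5, 3.79, 13.8 and 2.41 CPM in the control. The groups overlapped, and the log2 difference of 1.90 ± 0.68 (SE; adjusted p = 0.199 in edgeR) was 0.72 without RS10_725, whose labels disagree. The trend of Iglv1 was 0.18 per percent RPS, with an adjusted p of 0.0464 in DESeq2 and 0.096 in edgeR. In edgeR the slope fell to 0.057 without RS10_725. It passed in 1 of 20 edgeR fits with 1 mouse fewer (edgeR adjusted p 0.0389 to 0.559). The DESeq2 trend was not refitted with a mouse left out.

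Igkv14-100 stood at 0.142, 146, 0.186, 0.387 and 0.0904 CPM in the control, so that RS10_703 stood far above the other 4. At 10% RPS it stood at 11.8, 2.07, 2.05, 0.699 and 45.1 CPM, all above the other 4 control mice. The log2 fold change was -1.24 ± 1.51 (SE, edgeR adjusted p = 0.753) with RS10_703 and 5.92 without it (edgeR adjusted p = 0.0437, DESeq2 2.5e-05), and the trend became 0.57 per percent RPS (edgeR adjusted p = 0.00779). At 5% and 2% RPS the log2 fold changes of -5.50 and -5.35 likewise became 1.66 and 1.81 without RS10_703. Igkv12-44, the second segment of RS10_703, had a log2 difference of -2.59 ± 1.33 (SE; adjusted p = 0.369 in edgeR) at 10% RPS, and DESeq2 gave no p because it set the gene aside for an extreme count.

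At 5% RPS, Igkv4-55 had a log2 difference of 3.61 ± 1.19 (SE; adjusted p = 0.369 in edgeR), which was 0.50 without RS10_717. Igkv4-57-1 had 2.51 ± 1.16 (SE, edgeR adjusted p = 0.538), which was 0.46 without RS10_721, the library with pancreas transcripts. At 10% RPS, Igkv4-53 (2.44 ± 0.79 SE, edgeR adjusted p = 0.161) and Igkv16-104 (2.43 ± 0.88 SE, edgeR adjusted p = 0.203) came next in fold change. At 2% RPS, Igkv15-103 had 2.47 ± 0.94 (SE, edgeR adjusted p = 1), with 31.6 CPM in RS10_715 and 17.4 CPM in RS10_709 and at most 2.82 CPM in the other 3 mice. Apart from RS10_703 at 5.57 CPM, no control mouse exceeded 2.21 CPM.

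The genes that act with these segments, and cell markers, were read from lists. For comparison, at 10% RPS edgeR called 0.0391% and DESeq2 1.25% of all genes. At an unadjusted edgeR p under 0.05, 7.32% of all genes were higher and 7.87% lower at 10% RPS. Of 13 light chain constant and joining genes, which encode the rest of the chain, 5 had a row and 4 were tested. At 10% RPS edgeR called none, DESeq2 called 2 (Iglc1 and Iglc3), 3 were higher at an unadjusted edgeR p under 0.05, and the median log2 fold change was 1.73 against -0.02 for all genes tested. Iglc1 and Iglc3 were at 250 and 79.9 CPM in RS10_725, where Iglv1 led, and at 69.6 and 26.5 CPM at most in the other 19 mice. Igkc had a log2 difference of 0.96 ± 0.52 (SE; adjusted p = 0.396 in edgeR).

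Of the heavy chain constant and secretory genes, 9 of 10 were tested at 10% RPS, edgeR called none and DESeq2 1, and the median log2 fold change was 0.35. That gene, the IgG1 constant gene Ighg1, had a log2 difference of 3.03 ± 0.71 (SE; adjusted p = 0.0837 in edgeR and 0.00196 in DESeq2), with 0.603 to 8.61 CPM in the control and 24.8 to 52.5 CPM at 10% RPS, so that the groups did not overlap. Groups were separate for 2.28% of all genes at 10% RPS, in either direction. Igha, the constant gene of mucosal IgA, had a log2 difference of 0.96 ± 0.53 (SE, edgeR adjusted p = 0.41). Of the light chain assembly genes, which include the RAG genes, 4 of 7 were in the table, 1 passed the filter, none was called by either tool, and the summed level was 0.331 to 2.58 CPM in all libraries.

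Of the 17 plasma cell markers, edgeR called none at 10% RPS, DESeq2 called 3, and 7 were higher and none lower at an unadjusted edgeR p under 0.05, with a median log2 fold change of 0.56. The 3 were Cd38, a surface enzyme (0.88 ± 0.22), Eaf2, an elongation factor partner (0.79 ± 0.21), and Tnfrsf17, the receptor BCMA that keeps plasma cells alive (1.22 ± 0.34; SE, DESeq2 adjusted p 0.00486, 0.0153 and 0.0273). Of 13 B cell markers none passed an unadjusted p of 0.05 (median 0.47). Of the other markers, 1 of 6 for germinal centre B cells (median 0.32), 1 of 7 for T cells (0.02), 2 of 6 for colon epithelium (0.26), 0 of 5 for smooth muscle (-0.04) and 1 of 3 tested for pancreas (6.74) were higher at that p, and none was lower. Among these, edgeR called none and DESeq2 1, an epithelial gene. Summed over the pancreas markers, the median mouse stood at 0.595, 0.297 and 0.505 CPM at 0%, 5% and 10% RPS. The high pancreas values were in single mice, RS10_721 at 5% RPS (4732 CPM) and RS10_784 at 10% RPS (421 CPM). At 5% RPS 1 heavy chain, 3 plasma cell, 1 epithelial and 3 pancreas genes were higher at an unadjusted edgeR p under 0.05. At 2% RPS 1 heavy chain gene was. Of all genes, 9.19% at 5% and 1.41% at 2% RPS passed in either direction. Neither tool called a gene of any list at these levels. Their part in the segment differences was not tested.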

How the data were processed

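Whole distal colon RNA of 20 mice was sequenced from stranded poly(A) libraries as single reads of 50 bases. The authors trimmed the reads, aligned them to GRCm39 in CLC Genomics Workbench and deposited raw counts per Ensembl gene, with no normalization. The annotation release, the strand setting and the handling of reads with several placements are not given in the sources used here. Gene types and exon lengths came from GENCODE mouse release M39.

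Mice were grouped by the description label. The members and lists were chosen with earlier results of these data known. Counts of all genes were fitted in edgeR 4.0.16 (R 4.3.3, limma 3.58.1) with TMM scaling, filterByExpr with a minimum count of 10, and a robust quasi-likelihood fit over the 4 diets of 5 mice. A call needed a Benjamini-Hochberg adjusted p of at most 0.05 and a fold change of at least 1.5, except in the trend over RPS percent, which had no fold threshold. DESeq2 1.42.0, other scalings and filters, the treatment label and each mouse left out were alternatives, and the fits were tested on simulated data. CPM used TMM-scaled library sizes. P-values of the comparisons between diets measure the spread between the mice of a diet. The trend used the spread of all mice around a line over RPS percent, and the lambda relations were permuted over all mice.

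Named members were the 10 with the highest mean share, each leading segment, all Iglv members, those called by either tool, up to 4 in each direction at an unadjusted p under 0.05 and at least 1 CPM at each RPS level, Igkv6-25, Igkv4-57 and Igkv1-88, and the 6 others with the highest share in a mouse. Measures that sum over the members, such as the effective number of segments, carry no p. Lists were light chain constant and joining, heavy chain constant and secretory, and light chain assembly genes, and markers of plasma, B, germinal centre B, T, epithelial, smooth muscle and pancreatic cells. Motifs and sequences were read from the GRCm39 genome.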

Additional observations from a re-analysis of the deposited data

Results flagged for a closer look

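In the following values a single mouse lay apart from the other 4 of its diet, with a gap over its diet's range above Dixon's critical value of 0.71. This was so in 37 of 128 groups of 5 mice, where chance gives about 1 in 20 for groups with normal spread. Many of the segments were named for a high share in 1 mouse, which raises this count, so nothing is read from it. The summed light chain V level was 720 CPM in RS10_703 (control) and 454 CPM in RS10_715 (2% RPS). The leading segment took 35.5% in RS10_717 (5% RPS), which is its Igkv4-55 share of 35.5%, and lambda segments took 27.4% of light chain V use in RS10_725 (10% RPS), with Iglv2 at 6.86%.

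In the control, RS10_703 stood apart for Igkv14-100 (21.5%), Igkv12-44 (19.1%) and Igkv1-117 (8.06%). RS10_704, the mouse with the fewest light chain V counts, stood apart for Igkv1-110 (7.33%), Igkv4-55 (4.37%), Igkv4-57-1 (3.09%) and Igkv6-25 (2.15%). RS10_707 did so for Igkv10-96 (17.0%) and Igkv12-41 (7.51%), and RS10_708 for Igkv8-21 (8.26%).

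At 2% RPS the values were Igkv3-5 in RS10_748 (14.9%), Igkv10-96 in RS10_715 (13.9%), Igkv6-23 in RS10_716 (9.02%), Igkv8-30 in RS10_709 (8.37%), and Igkv4-53 (5.54%) and Iglv3 (0.902%) in RS10_712. At 5% RPS they were Igkv4-57-1 in RS10_721 (16.7%), Igkv6-15 (6.58%), Igkv15-103 (6.56%) and Iglv3 (1.77%) in RS10_718, and Igkv6-25 in RS10_724 (1.15%).

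At 10% RPS, RS10_784 stood apart for Igkv14-100 (23.1%) and Igkv14-111 (15.98%), RS10_729 for Igkv6-15 (13.4%) and RS10_731 for Igkv19-93 (7.56%) and Igkv12-41 (3.77%). RS10_727 stood apart for 5 segments, Igkv6-25 (9.5%), Igkv8-24 (3.37%), Igkv1-88 (3.33%), Igkv3-5 (2.43%) and Igkv4-55 (1.97%), and its effective number of segments was the highest of all mice.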

How the results depend on the processing

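Of the summary results under alternatives, 281 were counted as kept, 7 gained calls, 6 lost calls and 3 moved beyond the spread between mice. Those counted as kept held their direction and side of the threshold, stayed within that spread, or changed their number of calls by little. A trend count that rose from 2 to 3 was not counted among the 7. This happened in DESeq2 and without RS10_715 or RS10_727. The count of members called at 10% RPS was 0 and became 3 in DESeq2 and 0 to 2 with each mouse left out. At 2% RPS it was 0 and became 1 in DESeq2. At 5% RPS it was 0 in every edgeR fit and in DESeq2 with all mice. Among the 27 named members, DESeq2 with 1 mouse left out called Igkv14-100 lower in 3 fits and Igkv4-55 higher in 3. In DESeq2 at 5% RPS, the log2 fold change of Igkv14-100 was 1.70 without RS10_703. That of Igkv4-55 was 0.50 without RS10_717. The trend count of 2 became 0 with the treatment label, 3 in DESeq2 and 1 to 6 with each mouse left out. Segments detected differed from the control by 0.698, 0.971 and -0.909 at 2%, 5% and 10% RPS when thinned, and by 6.0, 6.8 and 9.2 as members with at least 10 counts, for which the total of light chain V counts was not held equal. For single members, 4429 values kept their side of the threshold, 156 of them with the opposite sign and no call. A further 96 passed a threshold, 8 lost one and 3 passed one with the opposite sign, all 3 for Igkv14-100 without RS10_703. Its log2 fold change at 10% RPS ran from -2.80 (without RS10_784) to 5.92 in edgeR and was 5.95 in DESeq2 without RS10_703, and its slope ran from -0.27 to 0.57. The DESeq2 fits with a mouse left out were chosen after seeing the data. No paired analysis was possible because every mouse carries a number of its own. Depth limits low members: 68 of 87 passed the filter on low counts, and 9 reached 10 counts in a single library.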
